A study of Mus musculus with 6 samples.

Results

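The cartilage matrix genes and Sox9 are 10 genes of the 24062 symbols in the count table of mouse aortic arch plaque: Sox9, Acan, Col2a1, Col9a1, Col11a1, Col10a1, Chad, Comp, Lect1 (the older symbol of Cnmd) and Hapln1. They were found by symbol, each in 1 row. They were picked with their levels in these same vehicle and ABT263 libraries already known, so their differences between the groups are given as a description, with no test. All 10 were among the 15222 genes kept by the filter on low counts.

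Hyaline cartilage is a matrix of collagen II fibrils, trimmed by collagens IX and XI, that holds aggrecan bound to hyaluronan. Chondrocytes make it under the transcription factor SOX9, which binds enhancers of the collagen II and aggrecan genes. Advanced mouse plaque can contain chondrocyte-like cells, many of which derive from smooth muscle cells that have lost their contractile genes, and such areas can calcify.

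RNA was sequenced from 3 libraries of mice given ABT263 and 3 of mice given vehicle. All mice were C57BL/6 with a knockout of the low-density lipoprotein receptor, and all were kept for 12 weeks on the high-fat diet TD88137, followed by 3 weeks of low-fat feeding up to sacrifice. ABT263 (navitoclax), an inhibitor of BCL-2, BCL-xL and BCL-w used to remove senescent cells, was given into the peritoneum at 100 mg/kg per daily dose in week 1 of the low-fat diet. The knockout and the diets are shared by both groups. The labels give neither age nor sex, nor whether each library is 1 animal, so part of the spread between libraries may be technical.

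Depth was between 62930547 and 110452098 counts per library. With a threshold of 0.05 on the adjusted p, edgeR's quasi-likelihood test called 0 of the 15222 genes (a background of 0%), while 1276 were under 0.05 unadjusted. DESeq2 called 153 genes (1718 under 0.05 unadjusted) and limma-voom called 0 (855 under 0.05 unadjusted). ABT263 replicate 2 stood apart by genes of white fat. Its 6 fat markers summed to 2504 CPM (counts per 1000000 counts of the library, the unscaled unit used for every sum over markers), against 115 and 209.9 in the other ABT263 libraries and 60.5 to 265 in the vehicle libraries. Vehicle replicate 2 had the lowest correlations with the other vehicle libraries (across genes, r = 0.934 and 0.937). Plaque markers were present in every library. The 8 macrophage markers summed to between 7601 and 13680 CPM in the ABT263 libraries and between 13720 and 19820 in the vehicle libraries, and the 8 contractile smooth muscle markers to between 2540 and 16900 in the ABT263 libraries and between 2424 and 3607 in the vehicle libraries.

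Every one of the 10 genes had a lower mean CPM, scaled by TMM as for all single genes here, in the ABT263 libraries than in the vehicle libraries. Among all genes tested, 49.9% had a negative log2 fold change. The median log2 fold change of the 10 was -1.03, beside 0.00080 over all genes tested. For Col2a1, Col10a1 and Chad every ABT263 library lay below every vehicle library, a pattern shown by 6.31% of all genes tested. The groups overlapped for the other 7. Since the genes were chosen on this contrast, nothing is read from these counts. In bulk tissue, fewer chondrocyte-like cells and less RNA per cell cannot be told apart. Vehicle replicate 3 was the highest library for 8 of the 10 genes, all but Comp and Lect1. The lowest library was ABT263 replicate 1 for 5 genes and ABT263 replicate 2 for 4.

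**Figure D1:**
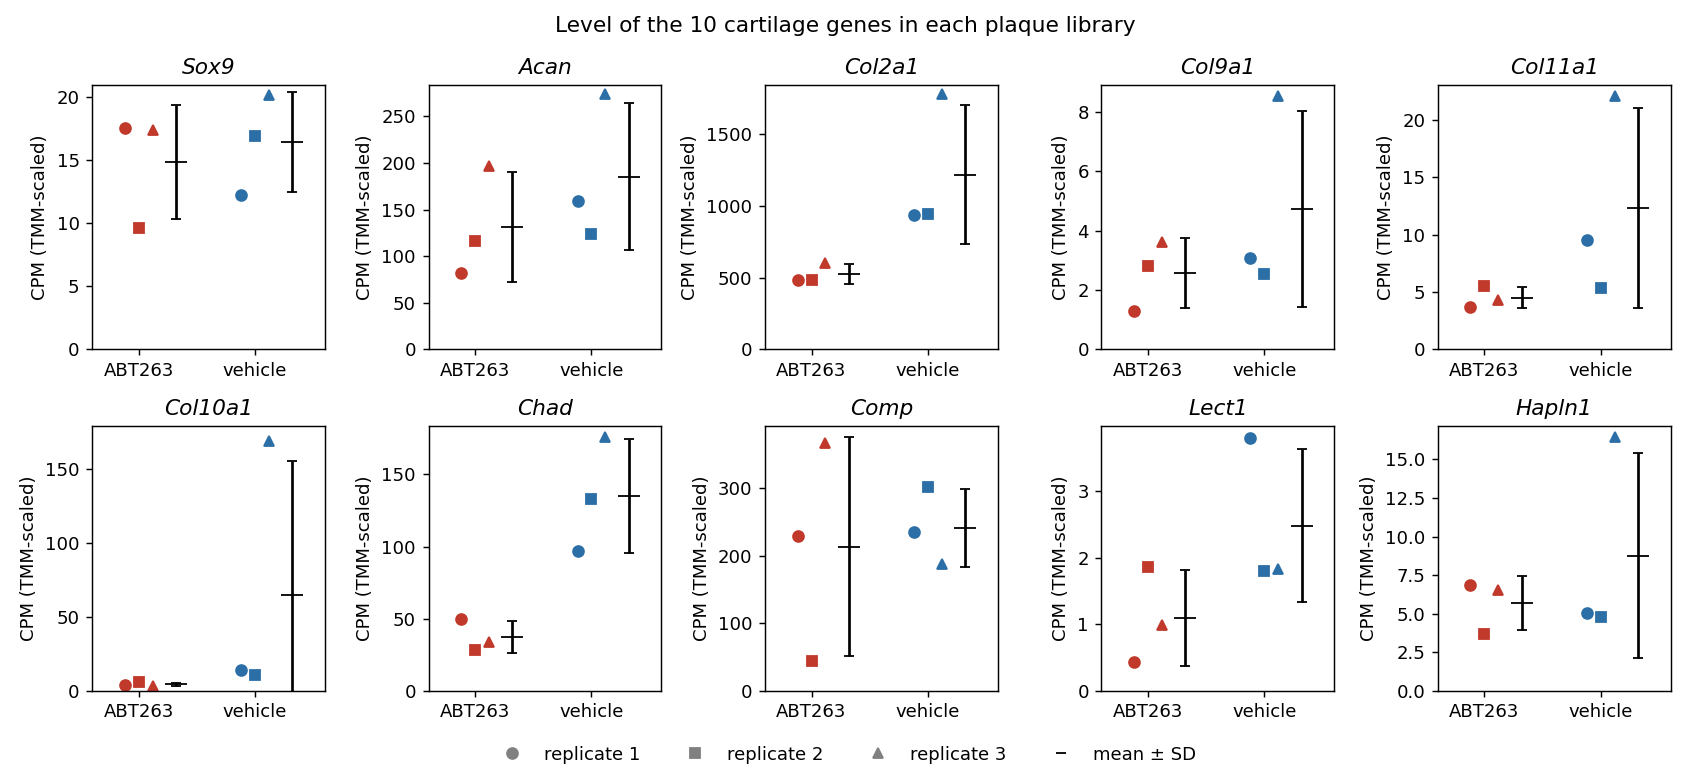
TMM-scaled CPM of each gene in every library, ABT263 left and vehicle right, with a marker shape per replicate and black bars for the mean ± SD (n = 3 each). Each panel has its own axis from 0, where the SD bar of Col10a1 in the vehicle libraries is cut. Col2a1, Col10a1 and Chad have no overlap between the groups, and Col10a1 reaches 169 CPM in vehicle replicate 3 alone.

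Levels of different genes were compared as CPM per kb of exon, on the exon lengths of GENCODE M21. Col2a1 had the highest mean level in both groups, with 103 ± 13.5 CPM per kb in the ABT263 libraries and 239 ± 94.7 in the vehicle libraries (SD, n = 3 each). Comp followed, with 88.3 ± 67.1 and 100.1 ± 23.9 CPM per kb, then Chad with 22.3 ± 6.69 and 80.4 ± 23.7, and Acan with 17.9 ± 8.02 and 25.2 ± 10.7. Sox9 stood at 3.58 ± 1.09 and 3.97 ± 0.960 CPM per kb. In the ABT263 libraries the ranges of Col2a1 and Comp, of Comp and Chad and of Chad and Acan overlapped. Within each of these libraries Comp still lay above Chad, which stood at 29.72, 16.8 and 20.25 CPM per kb in replicates 1 to 3. Acan, at 11.15, 15.78 and 26.77, lay below Chad in replicates 1 and 2 and above it in replicate 3. In ABT263 replicates 1 to 3 Comp stood at 94.72, 18.26 and 152.0 CPM per kb, against 94.70, 95.15 and 118.3 for Col2a1. The order of these means therefore rested on ABT263 replicate 2. In the vehicle libraries Col2a1 lay above Comp in every library, while Comp and Chad overlapped. Hapln1, Lect1, Col9a1 and Col11a1 lay lowest in both groups, with means from 0.589 to 0.994 CPM per kb in the ABT263 libraries and from 1.15 to 1.71 in the vehicle libraries. Neighbours among these 4 overlapped in both groups.

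**Figure D2:**
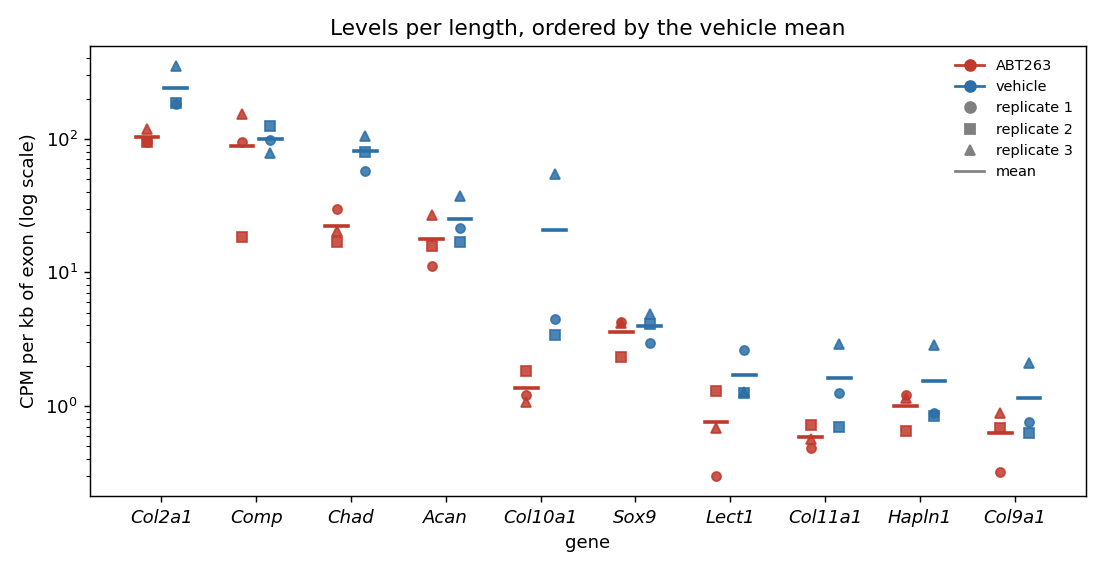
CPM per kb of exon on a log axis for the 10 genes, ordered by the vehicle mean; red points left are ABT263 libraries, blue points right are vehicle libraries, and short lines are means. Levels span from 0.300 CPM per kb (Lect1, ABT263 replicate 1) to 348 CPM per kb (Col2a1, vehicle replicate 3).

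Col2a1 (chromosome 15, 97975602 to 98004695, mm10) encodes the chain of collagen II, the main fibre of cartilage. Its level was 483, 486 and 604 CPM in ABT263 replicates 1 to 3 and 935, 944 and 1776 CPM in vehicle replicates 1 to 3. The highest ABT263 library lay below the lowest vehicle library, and the ABT263 libraries were close to each other. The mean in the ABT263 libraries was 43.0% of the vehicle mean (log2 fold change -1.22, SE 0.35). Col2a1 supplied between 48.8% and 69.1% of the summed CPM of the 10 genes in the ABT263 libraries and between 61.1% and 67.0% in the vehicle libraries. That sum, of TMM-scaled CPM, was 878, 703 and 1238 CPM in the ABT263 libraries against 1473, 1544 and 2652 CPM in the vehicle libraries. It did not overlap between the groups, but it holds the values that picked the genes, and much of it is Col2a1 itself. Nothing further is read from it. Without vehicle replicate 3 the log2 fold change of Col2a1 was -0.85.

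Col11a1 and Col9a1 encode chains of the minor collagens of that fibril: collagen XI, inside the fibril, and collagen IX, on its surface. Col11a1 (chromosome 3, 114030540 to 114220718) stood at 3.71, 5.53 and 4.32 CPM with ABT263 and 9.57, 5.31 and 22.1 CPM with vehicle (log2 fold change -1.45, SE 0.53). The groups overlapped because vehicle replicate 2 lay just under ABT263 replicate 2. Without vehicle replicate 3 the log2 fold change of Col11a1 was -0.72. Col9a1 (chromosome 1, 24177610 to 24252684) stood at 1.30, 2.82 and 3.62 CPM with ABT263 and 3.09, 2.55 and 8.54 CPM with vehicle (log2 fold change -0.87, SE 0.61). Its difference of means rested largely on vehicle replicate 3, without which the log2 fold change was -0.13.

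Genes for the partner chains were not among the 10, but their list was also chosen with earlier results of these data known. These partner genes had the same direction. Col9a3 stood at 8.76, 5.93 and 7.50 CPM with ABT263 and 13.2, 19.1 and 20.7 CPM with vehicle (log2 fold change -1.26, SE 0.27, edgeR adjusted p = 0.592). Col9a2 stood at 1.07, 1.82 and 2.66 CPM with ABT263 and 5.87, 3.49 and 15.9 CPM with vehicle (log2 fold change -2.18, SE 0.65, edgeR adjusted p = 0.592). Col11a2 stood at 48.2, 38.0 and 69.9 CPM with ABT263 and 71.6, 75.7 and 136.8 CPM with vehicle (log2 fold change -0.86, SE 0.34). None of these 3 genes passed by edgeR. For each of them every ABT263 library lay below every vehicle library, as for 6.31% of all genes tested. Without vehicle replicate 3 the log2 fold change was -1.14 for Col9a3, -1.34 for Col9a2 and -0.50 for Col11a2. By DESeq2, which called 1.01% of all genes, Col9a3 passed (adjusted p = 0.00949). Exons of Col9a3 overlap those of Tcfl5 on the other strand, so its count is uncertain. Per kb of exon Col11a2 was the more abundant chain gene of collagen XI, with 8.26 ± 2.58 and 15.02 ± 5.79 CPM per kb in the ABT263 and vehicle libraries, against 0.589 ± 0.121 and 1.61 ± 1.14 for Col11a1.

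Col10a1 and Chad had the largest differences between the groups, so the DNA before their start sites is shown, as RefSeq gives it (GRCm38.p6, 250 bases before the start site, plus strand, the strand of both genes). Capitals mark a TATA box (TATAAA) and a core site of SOX proteins (ACAAAG or ACAATG).
Col10a1, chr10:34389731-34389980: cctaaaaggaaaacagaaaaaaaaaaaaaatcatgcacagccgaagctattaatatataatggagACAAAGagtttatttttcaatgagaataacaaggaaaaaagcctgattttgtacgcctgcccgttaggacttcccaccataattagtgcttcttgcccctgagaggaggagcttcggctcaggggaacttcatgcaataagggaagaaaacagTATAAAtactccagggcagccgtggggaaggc
Chad, chr11:94564797-94565046: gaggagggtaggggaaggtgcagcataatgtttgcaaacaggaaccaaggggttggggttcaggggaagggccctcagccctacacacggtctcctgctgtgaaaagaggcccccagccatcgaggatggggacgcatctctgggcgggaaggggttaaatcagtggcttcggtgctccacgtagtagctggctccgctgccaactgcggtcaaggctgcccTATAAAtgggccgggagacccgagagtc
The TATAAA match began 32 bases before the start site of Col10a1 and 28 bases before that of Chad. Of all 32851 windows of this length, 12.4% held TATAAA on either strand, as did 2 of the 8 windows of the 7 genes with an entry (Col9a1 has a pair). The single SOX core match, ACAAAG, began 185 bases before the start site of Col10a1, in 1 of the 8 windows, and 25.2% of all windows held either core on either strand. The motifs do not overlap each other here. A match is a run of letters, not a measured binding site.

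Col10a1 encodes collagen X, made by hypertrophic chondrocytes before cartilage mineralises (chromosome 10, 34389981 to 34397085). It stood at 3.79, 5.68 and 3.32 CPM with ABT263 and 13.9, 10.6 and 169 CPM with vehicle (log2 fold change -3.92, SE 1.16). The groups did not overlap, and vehicle replicate 3 alone lay more than an order of magnitude above every other library. Without that library the log2 fold change was -1.53. Per 1000 Col2a1 counts there were 7.85, 11.7 and 5.51 Col10a1 counts in the ABT263 libraries and 14.9, 11.2 and 95.4 in the vehicle libraries, so relative to Col2a1 the groups overlapped. The exons of Col10a1 overlap those of Nt5dc1 on the opposite strand, and the library kit does not mark strand. Nt5dc1 itself stood at 12.3, 12.3 and 13.5 CPM with ABT263 and 12.6, 12.2 and 11.98 CPM with vehicle. How reads shared by the 2 genes were counted is not known, and their part in the Col10a1 count was not tested.

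Chad encodes chondroadherin, a leucine-rich protein that binds collagen II and integrins on chondrocytes (chromosome 11, 94565047 to 94569127). It stood at 49.9, 28.2 and 34.0 CPM with ABT263 and 96.7, 133 and 176 CPM with vehicle. The lowest vehicle library lay clearly above the highest ABT263 library, and the spread was alike in both groups (coefficient of variation 30.1% and 29.4%). The mean in the ABT263 libraries was 27.7% of the vehicle mean (log2 fold change -1.85, SE 0.32). Over the fits that left out 1 library the log2 fold change lay between -2.12 and -1.62.

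Acan and Hapln1 encode the parts of the hydrated gel between the fibrils: aggrecan, the large chondroitin sulfate proteoglycan, and the link protein that fastens it to hyaluronan. Acan (chromosome 7, 79053483 to 79115099) stood at 82.0, 116 and 197 CPM with ABT263 and 159, 124 and 274 CPM with vehicle (log2 fold change -0.49, SE 0.42). Hapln1 (chromosome 13, 89539796 to 89611652) stood at 6.86, 3.68 and 6.51 CPM with ABT263 and 5.02, 4.797 and 16.4 CPM with vehicle (log2 fold change -0.62, SE 0.56). The groups overlapped for both. The log2 fold change of Acan was -0.10 without vehicle replicate 3, -0.25 without ABT263 replicate 1 and -0.91 without ABT263 replicate 3. For Hapln1 the direction turned without vehicle replicate 3, to a log2 fold change of 0.21. Per 100 Col2a1 counts there were 16.97, 23.9 and 32.6 Acan counts with ABT263 and 16.99, 13.1 and 15.4 with vehicle.

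Comp encodes cartilage oligomeric matrix protein, a thrombospondin family member of cartilage, tendon and vessel wall (chromosome 8, 70373558 to 70382066). It stood at 228.8, 44.1 and 367 CPM with ABT263 and 235, 303 and 188 CPM with vehicle (log2 fold change -0.18, SE 0.68). ABT263 replicate 2, the library with fat markers, was the lowest of all 6 and ABT263 replicate 3 the highest. Without ABT263 replicate 2 the log2 fold change was 0.31, and without vehicle replicate 2 it was 0.013, so Comp had no steady direction. Lect1 encodes chondromodulin, a membrane protein whose cleaved part keeps vessels out of cartilage (chromosome 14, 79637690 to 79662170). It stood at 0.434, 1.87 and 0.982 CPM with ABT263 and 3.81, 1.80 and 1.83 CPM with vehicle (log2 fold change -1.18, SE 0.63). Its counts were the fewest of the 10 genes, 42 to 238 per library, and the groups overlapped. Leaving out vehicle replicate 1 gave a log2 fold change of -0.73, and leaving out ABT263 replicate 2 gave -1.80.

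Sox9 encodes the transcription factor of chondrocytes (chromosome 11, 112782224 to 112787760), which other cells of plaque can also express. It stood at 17.5, 9.61 and 17.3 CPM with ABT263 and 12.2, 16.9 and 20.1 CPM with vehicle. The groups overlapped almost fully, and the mean with ABT263 was 90.3% of the vehicle mean (log2 fold change -0.15, SE 0.31), the smallest difference among the 10 genes. The log2 fold change was 0.089 without ABT263 replicate 2 and 0.023 without vehicle replicate 3. Per 1000 Col2a1 counts there were 36.3, 19.8 and 28.7 Sox9 counts in the ABT263 libraries and 13.1, 17.9 and 11.3 in the vehicle libraries. On this ratio every ABT263 library lay above every vehicle library. The ratio holds the Col2a1 values, known when the genes were picked, and Sox9 itself overlapped between the groups, so nothing is read from it.

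**Figure D3:**
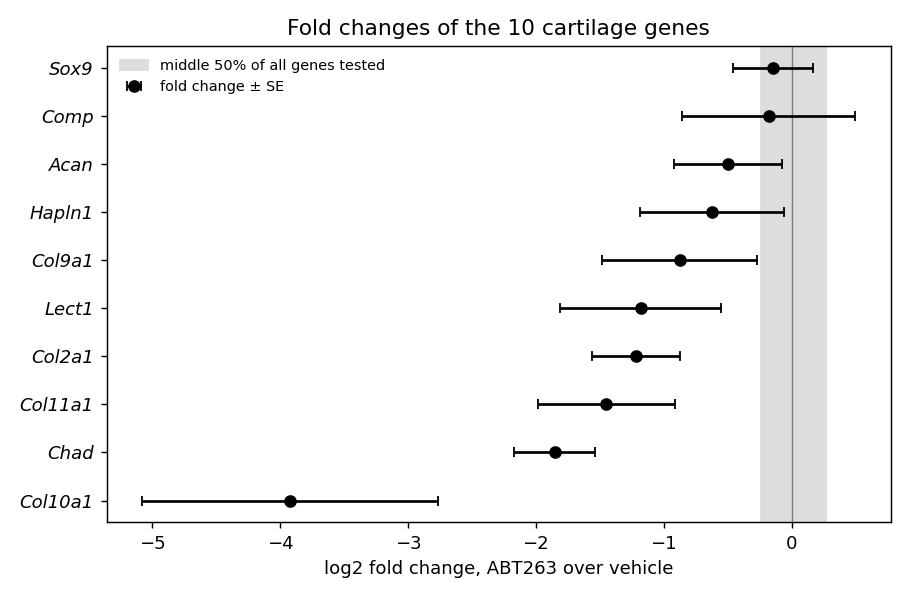
Log2 fold change of ABT263 over vehicle for the 10 genes, with bars of 1 SE; the grey band is the middle 50% of all genes tested, from -0.24 to 0.27. Sox9 and Comp lie inside the band and Col10a1 lies farthest from it.

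The spread of libraries within a group does not use the difference that picked the genes. After each group's mean was taken off log2 CPM, the 45 pairs of the 10 genes had a median correlation of r = 0.34 over 6 libraries, which share 2 group means, and 36 pairs were positive. The collagen genes, Acan and Hapln1, grouped after the r values were seen, had a positive r in all their pairs. It ran from 0.591 (Col9a1 and Hapln1) to 0.945 (Acan and Col9a1), with 0.907 for Col2a1 and Hapln1 and 0.604 for Acan and Col10a1. All of these genes lay above their group mean in vehicle replicate 3. The ABT263 libraries did not always share a direction: in replicates 1 to 3 Hapln1 deviated by 0.32, -0.57 and 0.25, but Col11a1 by -0.26, 0.31 and -0.05. Sox9 went with Chad (r = 0.849), Hapln1 (0.754) and Comp (0.727), and less with Col2a1 (0.56) or Acan (0.277). Lect1 ran against Chad (r = -0.914) and Sox9 (-0.865). Vehicle replicate 3 deviated upward for 8 of the 10 genes, by 0.61 for Col2a1 and 2.53 for Col10a1 on the log2 scale. Without that library the median correlation over the 45 pairs was 0.014, so the positive median rests on it. All 10 genes share the same 6 libraries and their depth.

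**Figure D4:**
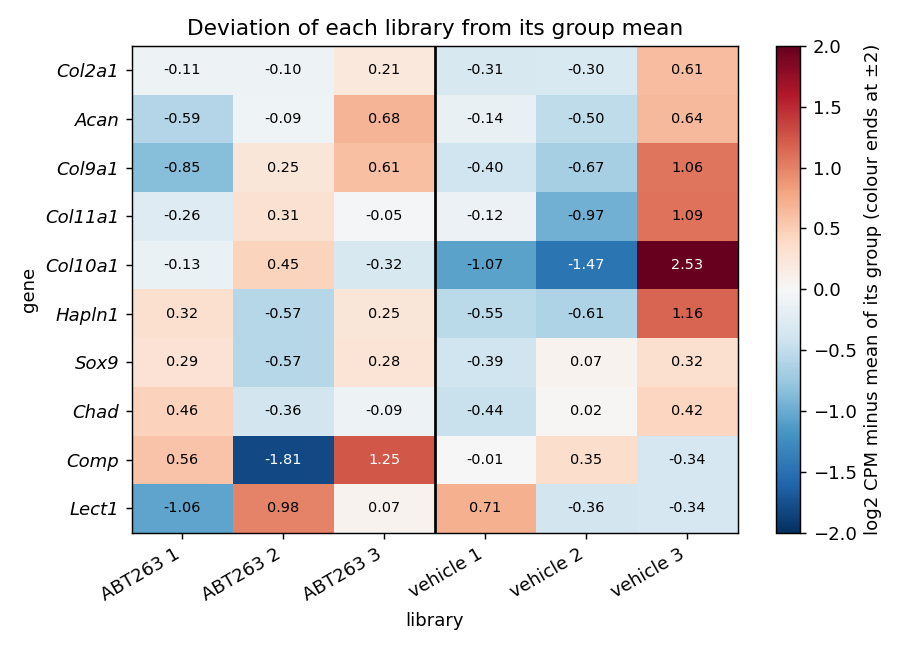
Log2 CPM of each gene in each library minus the mean of its own group, ABT263 libraries left of the black line and vehicle libraries right of it; red is above the group mean and blue below. The vehicle replicate 3 column is positive for all genes but Comp (-0.34) and Lect1 (-0.34).

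Among 11783 other genes whose mean log2 CPM was 1 or more, those whose deviations from the group means were most like the mean of the 10 cartilage genes included Dgcr8, Itga2, Crocc, Fstl1, Phf13, Zfp398 and Smad6. Their r with that mean ran from 0.991 (Dgcr8) to 0.975 (Smad6) over 6 libraries. These genes come from the top of a ranking of 11783 by r itself, so their r is high by selection and no link to cartilage is read from it. Fstl1, which encodes a secreted glycoprotein, stood at 1360, 1444 and 1626 CPM with ABT263 and 1058, 912 and 1740 CPM with vehicle. Smad6, which encodes an inhibitor of BMP signalling, stood at 47.1, 44.0 and 55.5 CPM with ABT263 and 37.9, 39.6 and 80.7 CPM with vehicle. Each of these was highest in vehicle replicate 3.

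Of 20 further cartilage matrix genes, also chosen with earlier results of these data known, 17 were tested and Matn1, Matn3 and Ucma were too low. By edgeR 0 of the 17 passed. At an unadjusted p under 0.05 there were 4 lower and 0 higher with ABT263, beside 8.38% of all genes in either direction. By DESeq2 Col9a3 and Clec3a passed, both lower, beside 1.01% of all genes. Of the 17, 11 had a negative and 6 a positive fold change, with a median of -0.43. For 4 of them every ABT263 library lay below every vehicle library, against 6.31% of all genes. These were the 3 collagen genes above and Clec3a. Clec3a (chromosome 8, 114418086 to 114425846), the gene of a C-type lectin found in cartilage, stood at 33.6, 19.4 and 31.7 CPM with ABT263 and 48.3, 132 and 149 CPM with vehicle (log2 fold change -1.96, SE 0.46, DESeq2 adjusted p = 0.0120).

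Enzymes and a sulfate transporter (Slc26a2) for making chondroitin sulfate and hyaluronan formed the next list. Of 12 tested, 9 had a positive and 3 a negative fold change, the median was 0.18, and 0 passed by edgeR or had an unadjusted p under 0.05. The 4 of smallest p were Csgalnact2 (log2 fold change 0.35), Chpf (0.51), Chst3 (0.35) and Chsy3 (0.68), all of which act in making or sulfating the chondroitin chain. Without ABT263 replicate 3 they were 0.26, -0.035, 0.025 and 0.30. Of 11 chondrogenic transcription factors, 6 were positive and 5 negative, with a median of 0.0050 and 0 passed. Sox6, a partner of SOX9 on the collagen II gene, stood at 6.94, 27.4 and 21.2 CPM with ABT263 and 8.26, 9.83 and 10.4 CPM with vehicle (log2 fold change 0.96, SE 0.48). Without ABT263 replicate 2 Sox6 was 0.57. Foxc1 had 0.55, Mef2c 0.68 and Foxa2, a regulator of hypertrophic chondrocytes, -1.42, or -0.63 without vehicle replicate 3. The level of Foxa2 was low, with means of 0.315 CPM with ABT263 and 0.844 CPM with vehicle. Of 12 genes for chondrocyte signals, 7 were positive and 0 passed. The 4 of smallest p were the BMP receptor gene Bmpr1b (2.42), Pthlh (1.30, or 0.57 without ABT263 replicate 1), Gdf5 (2.48, or -0.16 without ABT263 replicate 2) and Npr2 (0.28). Gdf5 stood at 3.02 CPM in ABT263 replicate 2 and at no more than 0.288 CPM in every other library.

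Late chondrocyte and osteoblast genes went both ways, with 4 of 10 positive and 6 negative, a median of -0.11 and 0 passed by edgeR. For Ibsp and Sp7, the bone sialoprotein gene and the osterix gene, every ABT263 library lay below every vehicle library. This held for 6.31% of all genes tested. Ibsp and Sp7 passed by DESeq2 (adjusted p = 0.00125 and 0.000524), which called 1.01% of all genes. By edgeR the adjusted p was 0.592 for both. Their list was also chosen with earlier results of these data known. Sp7 stood at 0.661, 0.771 and 1.02 CPM with ABT263 and 2.34, 3.75 and 4.59 CPM with vehicle (log2 fold change -2.12, SE 0.41). Ibsp had a log2 fold change of -1.91. Vegfa, the vessel growth factor gene, had 1.29 and Ank, a pyrophosphate exporter gene, 0.35. Of 10 genes for proteases of cartilage matrix and an inhibitor of them, 7 were positive and 3 negative, with a median of 0.24 and 0 passed. Mmp3 (stromelysin), which cleaves aggrecan, stood at 149, 69.95 and 420.3 CPM with ABT263 and 28.4, 83.3 and 48.5 CPM with vehicle (log2 fold change 1.996, SE 0.71, or 1.03 without ABT263 replicate 3). The aggrecanase gene Adamts5 had 1.56, Adamts1 1.03 and Adamts9 1.15. Without ABT263 replicate 2 these 3 were 0.80, 0.74 and 0.69.

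**Figure D5:**
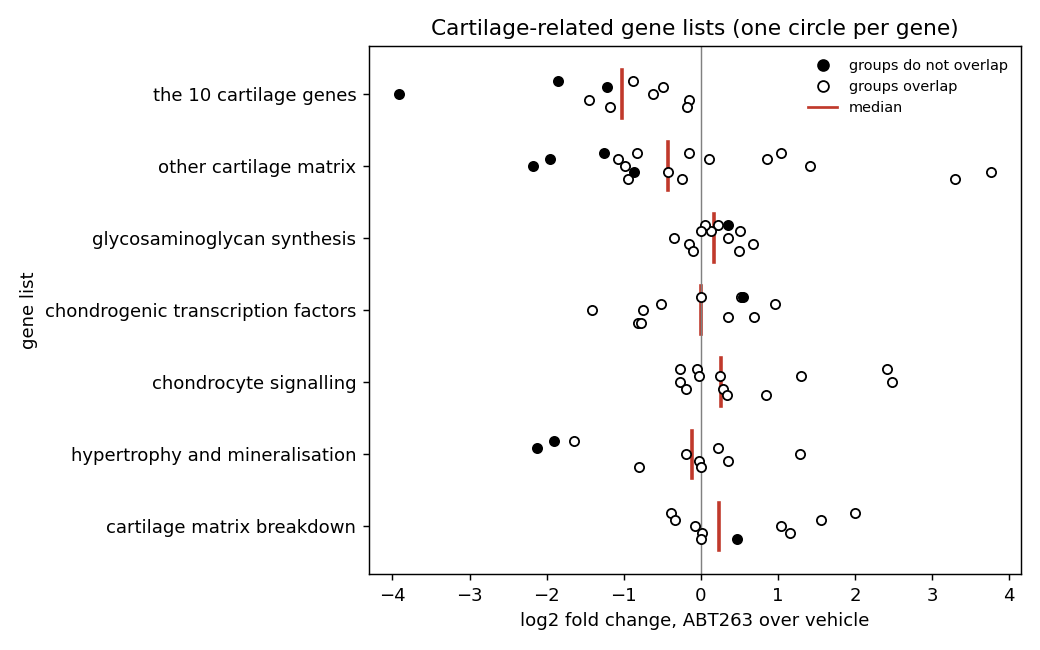
Log2 fold change of ABT263 over vehicle for every tested gene of the 10 cartilage genes and 6 related lists; filled circles are genes whose groups do not overlap, open circles those that overlap, and red lines are medians. The median is -1.03 for the 10 genes, -0.43 for further matrix genes and between -0.11 and 0.27 for the 5 remaining lists.

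Genes of other tissues that could bring cartilage genes with them were read in the same libraries. Of 9 markers of the epithelium of airway and oesophagus, organs beside the aortic arch, 8 were tested, and none had a count of 0 in all libraries. Their sum was 22.6, 28.1 and 11.7 CPM in the ABT263 libraries and 4.46, 19.3 and 31.9 in the vehicle libraries. These sums overlapped. The highest, 31.9 CPM, was in vehicle replicate 3, also the highest library for 8 of the 10 cartilage genes, and the next, 28.1 CPM, in ABT263 replicate 2. The part of such tissue in the cartilage genes was not tested. The 4 of smallest p were Foxj1 (log2 fold change 1.47), Scgb3a2 (0.62), Krt5 (-0.15) and Bpifa1 (-0.16), and 0 passed. Levels of Foxj1 and Krt5 were low, with means of 0.423 and 0.224 CPM with ABT263 and 0.154 and 0.250 CPM with vehicle. Over omissions of 1 library Krt5 ran from -0.92 to 0.57 and Bpifa1 from -0.73 to 1.69, and Scgb3a2 from 0.13 to 1.36, so their values turn on single libraries. Of 6 tendon markers, Kera had 0 counts in every library, which allows up to 0.0477 CPM, and Tnmd was too low to test. The tendon sum was 83.6, 198 and 234 CPM with ABT263 and 181, 293 and 302 with vehicle, most of it Fmod. Scx, the tendon transcription factor gene, stood at 14.6, 9.95 and 17.8 CPM with ABT263 and 12.7, 16.99 and 20.5 CPM with vehicle (log2 fold change -0.24, SE 0.29). Fmod had -0.69, Thbs4 -1.04 and Mkx 0.070, and leaving out single libraries turned Thbs4 (to 0.16 without vehicle replicate 1) and Mkx (to -0.41 without the same library). Levels of Thbs4 and Mkx were low, with means of 0.216 and 0.353 CPM with ABT263 and 0.444 and 0.332 CPM with vehicle.

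Levels of markers of plaque and perivascular cells also differed between the libraries, with 0 called by edgeR in any list. All 8 contractile smooth muscle genes were positive (median 1.85), the 4 of smallest p being Des (3.62), Cnn1 (2.16), Synpo2 (2.51) and Lmod1 (1.53). Without ABT263 replicate 2 Des was 1.87, Cnn1 1.45, Synpo2 1.80 and Lmod1 1.19. ABT263 replicate 1 lay within or just above the vehicle range for these genes, with Cnn1 at 78.0 CPM against 76.0 to 104 CPM in the vehicle libraries. All 8 macrophage genes were negative (median -0.80), the 4 of smallest p being Csf1r (-0.71), C1qb (-1.25), Fcgr1 (-1.78) and C1qa (-1.35). Without vehicle replicate 2, the highest library for all 4, Fcgr1 was -0.74, C1qa -0.85, C1qb -0.90 and Csf1r -0.61. Of 6 fibroblast genes 5 were positive (median 1.64), with Dpep1 at 5.90, Pdgfra at 1.17, Pi16 at 2.52 and Cd34 at 0.72. Without ABT263 replicate 2, Dpep1 was 0.49, Pi16 0.96 and Pdgfra 0.77, and Cd34 was 0.42 without ABT263 replicate 1. The 5 tested fat genes had a median of 8.01, Plin1 at 8.91, Cidec at 8.01, Adipoq at 8.71 and Retn at 7.34, which came from ABT263 replicate 2: without it Plin1 was -0.025 and Adipoq -0.038. The 6 skeletal muscle genes had a median of 2.17, with Myl1 at 4.04, Acta1 at 2.36, Tnnt3 at 1.70 and Ckm at 2.14, and summed to 4.25, 12.7 and 37.4 CPM in the ABT263 libraries, against 4.09 to 5.21 CPM in the vehicle libraries. Without ABT263 replicate 3 Acta1, Tnnt3 and Ckm were 0.28, 0.28 and 0.29, and without ABT263 replicate 2 Myl1 was 2.85. The part of these cells in the levels of the cartilage genes was not tested. Without ABT263 replicate 2, the library with fat markers, the log2 fold change was -1.16 for Col2a1 and -1.69 for Chad, and the median of the 10 genes was -1.05. In that fit 8 of the 10 genes were negative, while Sox9 (0.089) and Comp (0.31) were positive. Without vehicle replicate 3 the median was -0.53. Leaving out a library does not test the part of other cells.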

How the data were processed

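RNA of 6 plaque libraries was sequenced. Per the labels' protocols the kit was TruSeq RNA Library Prep v2. The authors deposited 1 table of raw counts per gene symbol. Per the submitters' processing notes, the build was mm10 and the tools were featureCounts 1.4.6, Subread, Bowtie2 2.2.6 and TopHat2 2.0.14, with no role given. The sources used here do not give the annotation, the strand setting or the rule for multi-mapped reads. Reads shared by overlapping genes may have been dropped or split.

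Columns were matched to samples by title. Replicates were numbered in accession order. The 10 genes and the 13 other lists were chosen with earlier results of these data known. In R 4.3.3, filterByExpr (minimum count 10, minimum total 15) left 15222 genes. Counts were scaled by TMM and tested with the quasi-likelihood test of edgeR 4.0.16 on group alone, with Benjamini-Hochberg adjustment over all genes. Log2 CPM used a prior count of 2. SE is the fold change over the square root of F. The fit was tested on simulated data. DESeq2 1.42.0, limma-voom (limma 3.58.1), RLE size factors, no filter, unscaled totals and omissions of libraries were tried. Named genes were all 10 genes, the 4 of smallest p in each list, and the 8 of most similar within-group pattern, of which 1 is not reported here. Any other gene named was picked after its values were seen. Positions and exon lengths came from GENCODE M21 (GRCm38, the assembly of mm10). Snorc was matched by its RefSeq synonym and Adgre1 by its older symbol Emr1. RefSeq start-site windows matched 7 of the 10 genes. A count of 0 allows up to 3 counts, or 0.0272 to 0.0477 CPM, which covers counting error only.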

Additional observations from a re-analysis of the deposited data

How the results depend on the processing

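All 10 cartilage genes kept a negative log2 fold change under DESeq2, limma-voom, RLE size factors, no filter and unscaled library totals, the last of which was added after the data were seen. Their median was -1.03 as reported and ran from -1.27 (without vehicle replicate 2) to -0.53 (without vehicle replicate 3) when each library was left out in turn. With vehicle replicate 2 and ABT263 replicate 2 both left out the median was -1.28, and 8 of the 10 genes were negative. Over the omissions of 1 library 8 to 10 genes were negative, Sox9, Comp and Hapln1 being those that turned. Acan, Col2a1, Col9a1, Col11a1, Col10a1, Chad and Lect1 were negative in all 12 alternatives. The median within-group correlation ran from 0.014 to 0.698 when 1 library was left out. DESeq2 called 153 genes in all (1.01%) and 7 of the 117 tested in the other lists (Sp7, Ibsp, Col9a3, Clec3a, Myl1, Des and Csf1r). In those lists edgeR called 0, with 28 at an unadjusted p under 0.05, beside 8.38% of all genes. The lists were chosen with earlier results of these data known. The cause of the difference between DESeq2 and edgeR was not tested. No paired analysis was possible because the labels carry no replicate numbers.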

Other observations

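Some genes of the further cartilage matrix list, picked after their values were seen, varied widely between the ABT263 libraries. Cytl1, which encodes a secreted protein of cartilage, had the highest level per length of that list and the 10 genes, 666 ± 455 CPM per kb of exon with ABT263 and 898 ± 189 with vehicle (SD, n = 3 each), above Col2a1. It stood at 1156, 452 and 338 CPM with ABT263 and 668, 932 and 1023 CPM with vehicle. Prg4, the lubricin gene of joint surfaces, stood at 107, 31.1 and 501 CPM with ABT263 and 61.2, 103 and 75.9 CPM with vehicle, so ABT263 replicate 3, also the highest for Comp, stood apart. Its exons overlap those of Tpr. Susd5 stood at 54.9, 259 and 241 CPM with ABT263 and 96.5, 92.1 and 118 CPM with vehicle. Epyc, a small proteoglycan gene of growth cartilage, stood at 13.8 CPM in ABT263 replicate 2 and at no more than 0.145 in the other ABT263 libraries and 0.951 in the vehicle libraries. None of these passed by edgeR.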
